A study of Mus musculus with 10 samples.

Results

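Bone marrow of NSG and PTPRCA recipient mice was compared for the barcoded clones of an MLL-AF9 leukaemia. The 4 marrow samples, of 10 samples in the series, were NSG marrow and PTPRCA marrow of donor mouse 1 and donor mouse 2, all collected at disease and paired by donor mouse. MLL-AF9 leukaemia cells of each donor mouse went into NSG and into PTPRCA recipients. The labels' protocols describe c-Kit-positive haematopoietic progenitors, cultured with IL-3, IL-6 and SCF and transduced with SPLINTR barcode libraries. The series also holds each donor's baseline cells and spleens of both strains. Clones were included when they reached 100 CPM (barcode reads per 1000000, so 0.01% of reads) in at least 1 of the 4 marrow samples, which 1416 of 19704 listed barcodes did. They comprised 871 mCHERRY, 524 BFP and 21 GFP barcodes, the name prefix being the barcode library, and together held 97.1% to 98.6% of the reads of each marrow sample. The lowest value inside this limit was 100.15 CPM (BFP_Barcode_12454) and the highest outside it was 99.6 CPM (BFP_Barcode_196990). The labels name neither the ages of the mice nor the number of recipients behind a sample, so a difference between strains and a difference between individual recipients cannot be told apart, and p-values measure only the spread between these samples.

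As background, MLL-AF9 is a fusion of Kmt2a (MLL), a histone methyltransferase gene, with Mllt3 (AF9), and drives acute leukaemia when expressed in blood progenitors. A SPLINTR barcode is carried by a lentivirus into the genome of a cell and is passed to all of its descendants, so the share of a barcode among reads follows the share of that clone among cells. NSG mice lack T, B and natural killer cells, whereas Ptprca mice carry the CD45.1 form of the leukocyte surface phosphatase CD45 and have a working immune system. The strain comparison sets clone shares in NSG recipients beside those in PTPRCA recipients. Whether a difference comes from the immune system was not tested. Shares are relative, and a lower share does not say that a clone held fewer cells.

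Depth was 5171235 to 10394809 reads per marrow sample, as recovered from the spacing of low values, in 10 sequenced libraries. A count of 0 allows up to 3 reads, which correspond to between 0.289 and 0.580 CPM, far below the 100 CPM limit. Libraries of 1 lysate could be told apart for clones up to 1000 CPM in 3 of the 4 samples. Between the pair of libraries, Spearman's rho over clones of 100 to 1000 CPM was 0.932 in donor 1 PTPRCA marrow (310 clones) and 0.974 in donor 2 PTPRCA marrow (327 clones), but 0.618 in donor 1 NSG marrow (426 clones). In donor 1 NSG marrow 20 of the 426 clones differed over 4-fold between its libraries, and 0 did in the PTPRCA marrow of either donor. Donor 1 NSG marrow thus had a larger technical spread than both PTPRCA marrows. Libraries of donor 2 NSG marrow were not told apart, so whether this spread goes with the strain or with the sample cannot be told. Values for each library of donor 1 NSG marrow are given for fold differences, restricted clones and some named clones, where reads could be assigned. Its clone numbers, evenness and library shares rest on the mean of its libraries alone. Reads were amplified by PCR and carry no molecular identifiers, so limits taken from read numbers hold for counting error alone.

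More clones were found in NSG than in PTPRCA marrow, and at the limit of 100 CPM nearly equally so in both donors. The NSG over PTPRCA ratio was 1.36 in donor 1 and 1.34 in donor 2 at that limit. It was 1.47 and 1.28 at 10 CPM, and 1.22 and 1.34 at 1000 CPM. Clones of at least 100 CPM numbered 571 in NSG and 419 in PTPRCA marrow of donor 1, and 561 and 418 in donor 2. NSG marrow held 566 ± 7.07 (SD, n = 2) and PTPRCA marrow 418.5 ± 0.707 (SD, n = 2), a 1.35-fold difference, and the ranges did not overlap. The exact permutation test that exchanges the strains within each donor gave p = 0.5 (two-sided), the smallest value that 2 donors allow, so that no difference between strains in these data can pass a threshold by it. The additional clones of NSG marrow were mostly small. The class of 100 to 1000 CPM held 448 and 442 clones in NSG against 318 and 329 in PTPRCA marrow (donors 1 and 2), and the class of 0.1% to 1% of reads held 109 and 109 against 83 and 78. Clones of 1% or more went the other way in both donors, with 14 and 10 in NSG and 18 and 11 in PTPRCA marrow.

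Reads were spread more evenly over the clones of NSG marrow. In PTPRCA marrow clones of at least 1% held 66.4% and 67.2% of reads (donors 1 and 2), and in NSG marrow 54.1% and 56.7%. Reaching 50% of reads took 11 clones in NSG against 6 in PTPRCA marrow of donor 1, and 5 against 3 in donor 2. Reaching 90% of reads took 253 against 130 clones in donor 1 and 231 against 129 in donor 2, a 1.87-fold mean difference. The Shannon entropy of the included clones, written as an effective number of equally large clones, was 63.96 in NSG and 43.8 in PTPRCA marrow of donor 1, and 47.6 and 31.1 in donor 2. The log2 ratio was 0.55 in donor 1 and 0.61 in donor 2 (mean fold 1.49, exact permutation p = 0.5). Evenness, the entropy of the clones of at least 100 CPM over its maximum, was 0.650 in NSG and 0.619 in PTPRCA marrow of donor 1, and 0.605 against 0.561 in donor 2. Its difference was 0.032 in donor 1 and 0.044 in donor 2, of 1 sign (exact permutation p = 0.5).

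**Figure D1:**
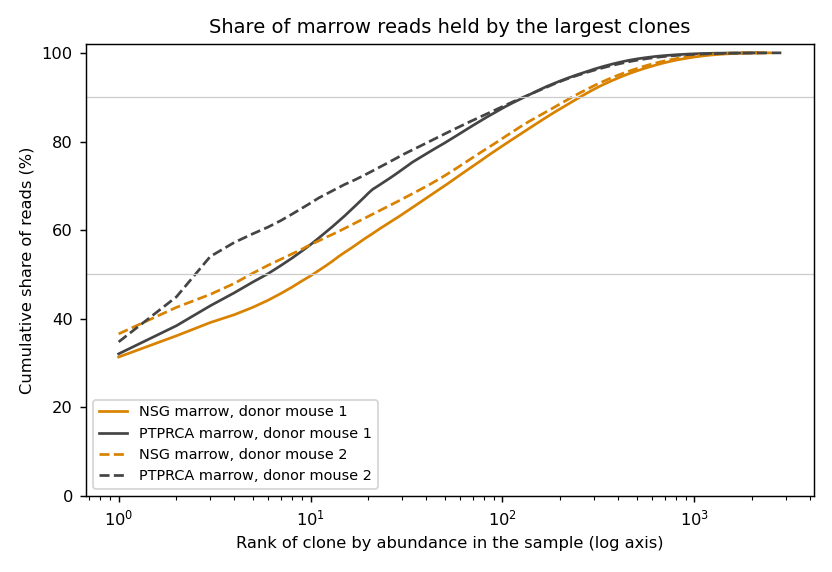
Cumulative share of marrow reads (vertical axis, %) held by clones ranked from the largest (horizontal axis, log scale), with 1 line for each marrow sample and grey lines at 50% and 90%. The PTPRCA lines (dark) reach 90% at 130 and 129 clones and the NSG lines (orange) at 253 and 231.

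One clone took about the same share in both strains and set the start of these curves. GFP_Barcode_52804 was the largest clone of all 4 marrow samples, at 31.4% in NSG and 32.1% in PTPRCA marrow of donor 1 and at 36.6% and 34.8% in donor 2. It was already at 29.8% and 36.7% in the baselines. Its NSG over PTPRCA ratio was 0.978 in donor 1 and 1.05 in donor 2. Measures that weight the largest clone most therefore showed little difference, with inverse Simpson numbers of 9.0 in NSG against 8.52 in PTPRCA marrow of donor 1 and of 6.74 against 6.77 in donor 2. With the largest clone removed, the inverse Simpson numbers were 67.99 against 40.3 and 50.3 against 18.5. The effective numbers then were 183.6 against 106.5 in donor 1 and 167.8 against 74.9 in donor 2, a mean 1.97-fold difference. The 10 next largest clones held 19.5% and 20.96% of reads in NSG and 26.1% and 32.5% in PTPRCA marrow, and these ranges did not overlap.

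Below that clone, the leading clones changed places between the strains. Of the 10 largest clones of a marrow, 4 were among the 10 largest of the other strain's marrow in each donor. Of the 50 largest, 19 were shared in donor 1 and 20 in donor 2, and of the 100 largest 49 and 54. Between marrow and spleen of 1 strain and donor the same counts were 5 to 7, 28 to 35 and 65 to 70, all higher. The labels do not say whether marrow and spleen came from the same recipients, so the marrow and spleen values given beside those of the strains may compare tissues within a mouse, whereas the strains are always different mice. Bray-Curtis similarity, the summed overlap of clone shares, was 0.616 and 0.658 between the marrows of the strains (donors 1 and 2) and 0.626 to 0.788 between marrow and spleen of 1 strain. Without the largest clone it was 0.443 and 0.484 between the strains, and 0.568 to 0.70 between the tissues of a strain. Ranks were compared over clones of at least 100 CPM in either sample, a choice on the higher value that by itself lowers the correlation. Spearman's rho was 0.173 (721 clones) in donor 1 and 0.162 (701 clones) in donor 2, against 0.495 to 0.618 for marrow and spleen chosen in the same way. Over clones of at least 100 CPM in both marrows it was 0.505 (269 clones) and 0.453 (278 clones). These are descriptions across clones, which share a sample and are not replicates.

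In donor 1, the largest clones of the marrows were partly the same. mCHERRY_2_Barcode_8041 stood at 4.79% of NSG and 4.49% of PTPRCA marrow. mCHERRY_2_Barcode_746646 stood at 1.38% of NSG and 2.93% of PTPRCA marrow. These differences were 1.07-fold and 2.12-fold. GFP_Barcode_52357 was higher in PTPRCA, at 1.76% of NSG and 6.35% of PTPRCA marrow, and GFP_Barcode_98919 was higher in NSG, at 2.99% and 0.965%. In spleen, GFP_Barcode_98919 went the other way, at 0.511% of NSG and 8.23% of PTPRCA spleen. The fifth largest clone of each marrow was small in the other. BFP_Barcode_112923 held 1.68% of NSG marrow (rank 5) and 36.6 CPM of PTPRCA marrow (rank 610), 457.6-fold less. mCHERRY_2_Barcode_596565 held 2.43% of PTPRCA marrow (rank 5) and 398.8 CPM of NSG marrow (rank 268), 60.9-fold less.

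In donor 2, the 3 largest mCHERRY clones led both marrows. mCHERRY_2_Barcode_311488 stood at 5.98% of NSG and 9.09% of PTPRCA marrow and mCHERRY_2_Barcode_96127 at 2.46% and 3.17%. mCHERRY_2_Barcode_187286 stood at 2.93% of NSG and 10.2% of PTPRCA marrow, 3.47-fold higher in PTPRCA. Other leaders were among the 5 largest in 1 strain alone, though present in both. mCHERRY_2_Barcode_289696 held 2.32% of NSG marrow and 521.8 CPM of PTPRCA marrow, 44.5-fold less. mCHERRY_2_Barcode_975026 held 1.96% of PTPRCA marrow and 1559 CPM of NSG marrow, 12.6-fold less. Of all clones that reached 1% in either marrow, 5 of 27 did so in both strains in donor 1 and 4 of 17 in donor 2, and 16 of 27 and 9 of 17 were over 4-fold apart.

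**Figure D2:**
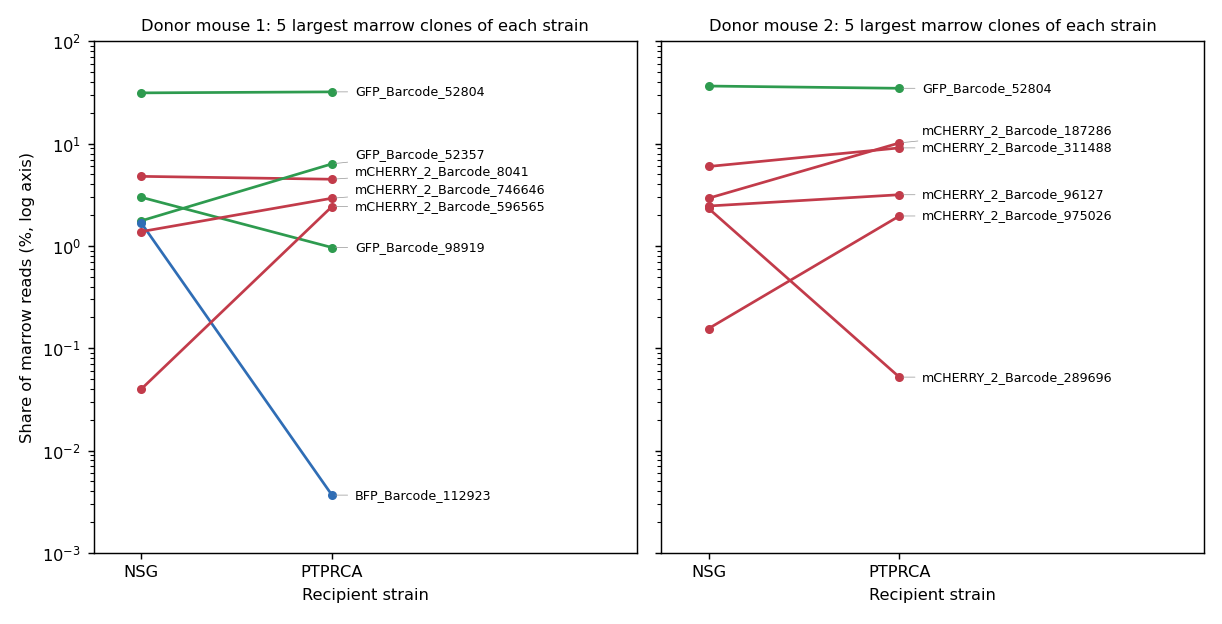
Share of marrow reads (vertical axis, %, log scale) in NSG and PTPRCA marrow of each donor mouse for the 5 largest clones of each marrow, 1 line for each clone, green for GFP, blue for BFP and red for mCHERRY. GFP_Barcode_52804 lies level at the top of both panels, whereas lines such as BFP_Barcode_112923 (1.68% against 0.00366%) and mCHERRY_2_Barcode_596565 (0.0399% against 2.43%) cross the others.

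Most clones of a donor were not matched in size between the strains. Of the 721 marrow clones of donor 1, 269 reached 100 CPM in both marrows, 302 in NSG alone and 150 in PTPRCA alone, and of the 701 of donor 2 the counts were 278, 283 and 140. The shared clones were 47.1% and 49.6% of the NSG clones and 64.2% and 66.5% of the PTPRCA clones (donors 1 and 2), but held 81.7% and 83.9% of NSG reads and 91.6% and 92.5% of PTPRCA reads. On the log2(CPM + 10) scale, which understates the change of rare clones, 303 clones of donor 1 were over 4-fold higher in NSG and 142 over 4-fold higher in PTPRCA, beside 10.7% and 5.2% of all 3443 clones tested in the series. In donor 2 the counts were 273 and 127 of 701, beside 9.44% and 4.56% of the 3443. The 3443 include clones absent from the donor, and the 721 and 701 were chosen on the higher of the values compared, so nothing is read from these shares against each other. The split by direction was alike in the donors, and 61.7% of donor 1 and 57.1% of donor 2 clones were over 4-fold apart by strain, against 16.0% to 31.5% between marrow and spleen of 1 strain, chosen in the same way. The median log2 difference NSG minus PTPRCA was taken for donors 1 and 2 by the size of a clone in its higher strain. Among clones of 100 to 1000 CPM it was 1.77 (552 clones) and 1.27 (547 clones). Among clones of 0.1% to 1% of reads it was 0.56 (142 clones) and 0.68 (137 clones). Among clones of 1% of reads and above it was -0.87 (27 clones) and -0.60 (17 clones). In that class 11 clones were higher in NSG and 16 in PTPRCA (donor 1), and 7 and 10 (donor 2). These size classes were set on the higher of the values compared, so their medians follow in part from the clone numbers above. Whether differences depended on size was not tested. In donor 1, over the 426 NSG clones whose reads could be assigned to a library, 242 and 228 were over 4-fold higher in NSG and 22 and 37 over 4-fold higher in PTPRCA by its first and second library alone, against 237 and 22 by their mean.

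**Figure D3:**
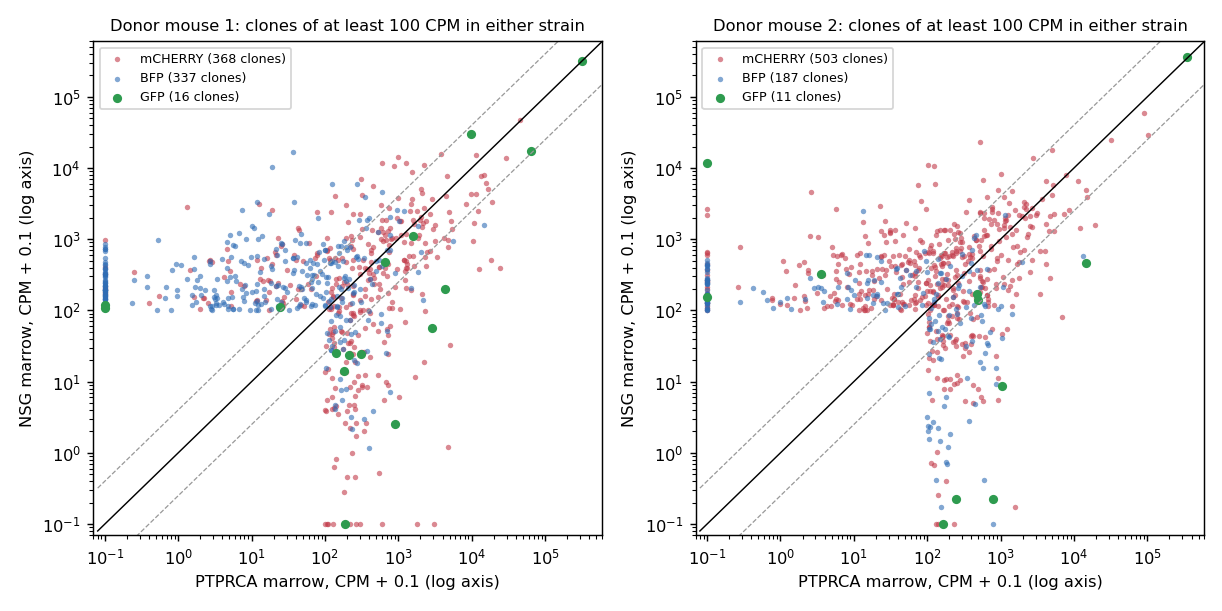
Abundance of each clone in PTPRCA marrow (horizontal axis) and NSG marrow (vertical axis), both as CPM + 0.1 on log scales, for clones of at least 100 CPM in either marrow of donor mouse 1 (721 clones) and donor mouse 2 (701 clones). The solid line marks equal abundance and dashed lines a 4-fold difference, and the column of points at the left edge of each panel holds clones listed at 0 in PTPRCA marrow, most of them BFP (blue).

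Clones of at least 100 CPM in both marrows of a donor differed by up to 107.9-fold. In donor 1, BFP_Barcode_335097 stood at 5989 CPM in NSG and 123.8 CPM in PTPRCA marrow, and mCHERRY_2_Barcode_216835 at 4068 and 138.7 CPM. mCHERRY_2_Barcode_25922 stood at 504.0 CPM in NSG and 18421 CPM in PTPRCA marrow, 36.5-fold higher in PTPRCA. In donor 2, mCHERRY_2_Barcode_441551 stood at 10986 CPM in NSG and 101.8 CPM in PTPRCA marrow, and mCHERRY_2_Barcode_409797 at 10536 and 122.2 CPM. BFP_Barcode_97773 stood at 582.2 CPM in NSG and 13163 CPM in PTPRCA marrow, 22.6-fold higher in PTPRCA. These 6 clones were picked as extremes of each donor, beside mCHERRY_2_Barcode_596565 and GFP_Barcode_52357, and each reached 100 CPM in marrow of 1 donor alone. In the spleens, which did not choose them but may come from the same recipients, each of the 6 differed in the same direction as in marrow, for example 4760 against 148.0 CPM for mCHERRY_2_Barcode_441551 and 1289 against 691.0 CPM for BFP_Barcode_335097.

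Over both donors together, limma on log2(CPM + 10) called 0 of the 1416 clones between NSG and PTPRCA marrow (0% of the 3443 clones tested, and 0 had p below 0.05 before adjustment). Adding the donor mouse to the model also gave 0 calls (0% of 3443), and 82 of the 3443 clones had limma p below 0.05 before adjustment. All 82 were among the 1416. These were chosen for reaching 100 CPM in marrow, so nothing is read from that. The lowest adjusted p of that blocked model belonged to GFP_Barcode_40977 (log2 5.09 ± 1.35 SE, limma adjusted p = 0.543), which rests on 1 of the 2 donors. The donors hardly shared clones, so the spread between donors was large in the model without the donor mouse. With the donor mouse in the model, the strain difference of most clones rested on 1 donor. Under either model, 0 calls do not show that clones were alike in the strains. Of the 1416, 6 reached 100 CPM in marrow of both donors, and all 6 were GFP barcodes. Whether such a barcode marks 1 clone or separate cells with the same barcode was not tested.

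The 6 GFP barcodes did not share a direction. GFP_Barcode_52357 was higher in PTPRCA marrow of both donors, 3.6-fold in donor 1 and, at 460.5 against 14702 CPM, 31.9-fold in donor 2. GFP_Barcode_3138 stood at 199.2 CPM in NSG and 4324 CPM in PTPRCA marrow of donor 1, and in donor 2 was listed at 0 in NSG and at 166.3 CPM in PTPRCA marrow. Its NSG value in donor 1 came from 316.1 and 82.3 CPM in the separate libraries. GFP_Barcode_69276 was higher in PTPRCA in both donors too, at 1111 against 1604 CPM and at 8.49 against 1043 CPM. GFP_Barcode_19949 stood at 108.5 CPM in NSG marrow of donor 1 and 152.6 CPM in that of donor 2, and was listed at 0 in both PTPRCA marrows but at 3.0 CPM in PTPRCA spleen of donor 1. It was the sole barcode restricted to NSG marrow in both donors, its donor 1 libraries held 30.1 and 186.9 CPM, and no barcode was restricted to PTPRCA marrow in both. GFP_Barcode_18532 was 4.66-fold higher in NSG in donor 1, where the NSG libraries held 7.17 and 219.6 CPM, and 2.77-fold higher in PTPRCA in donor 2. GFP_Barcode_52804, described above, differed by at most 1.05-fold.

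Among the 1416 clones, 27 had a difference of 1 sign in both donors, 13 higher in NSG and 14 lower. Such a sign can rest on under 3 reads in 1 of the donors. In donor 2, mCHERRY_2_Barcode_8041 stood at 0.157 CPM in NSG and 0 in PTPRCA marrow, and mCHERRY_2_Barcode_596565 at 0 and 0.185 CPM. The 27 were not set against an expected number, and are not read as clones that behaved alike in both donors. Beside the GFP barcodes above, the 3 largest mean differences in each direction included BFP_Barcode_565785, at 25.9 CPM in NSG marrow of donor 1 and 284.2 CPM in that of donor 2, and BFP_Barcode_354313, at 118.9 and 60.3 CPM. Both were listed at 0 in both PTPRCA marrows and in both baselines. Lower in NSG was GFP_Barcode_113643, listed at 0 in NSG marrow of donor 1 and at 0.510 CPM in that of donor 2, against 187.4 and 55.8 CPM in PTPRCA marrow. Its baselines held 7288 and 2377 CPM, so it stood below its baseline in all 4 marrows.

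Some clones were found in the marrow of 1 strain alone, and far more of them in NSG. A clone was called strain-restricted when it had at least 100 CPM in the marrow of a strain and under 3 reads in the marrow of the other strain of the same donor. In donor 1, 77 of 571 NSG clones (13.5%) and 16 of 419 PTPRCA clones (3.82%) were restricted, and in donor 2 65 of 561 (11.6%) and 10 of 418 (2.39%). Of these, 70 of 77 and 60 of 65 for NSG were listed at exactly 0 in the other strain (donors 1 and 2). For PTPRCA it was 11 of 16 and 5 of 10. The limit for absence was 0.427 and 0.515 CPM in PTPRCA and 0.580 and 0.289 CPM in NSG marrow, so that in donor 1 the strain with fewer restricted clones was checked against the shallower sample. With 1 common limit of 1 CPM the mean count of a donor was 79.5 for NSG and 18 for PTPRCA. As a scale, of the same clones of at least 100 CPM, 3 and 2 NSG clones (0.525% and 0.357%) and 0 PTPRCA clones had under 3 reads in the spleen of their own strain and donor. In marrow of the same strain in the other donor, 9 of 571 and 5 of 561 NSG clones and 8 of 419 and 10 of 418 PTPRCA clones had at least 3 reads.

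Restricted clones were small. Their median was 202.6 and 210.4 CPM in NSG and 208.0 and 199.6 CPM in PTPRCA marrow, against 341.9 to 421.8 CPM for the other clones of at least 100 CPM. Together they held 2.04% and 3.19% of NSG reads and 0.818% and 0.439% of PTPRCA reads. The largest in NSG of donor 1 were mCHERRY_2_Barcode_507381 at 986.9 CPM, BFP_Barcode_88080 at 863.6 CPM and BFP_Barcode_155848 at 787.6 CPM. All 3 were listed at 0 in PTPRCA marrow and were at least 1842-fold higher in NSG. In donor 2, GFP_Barcode_40977 reached 11609 CPM (1.16%) in NSG marrow, with mCHERRY_2_Barcode_862555 at 2632 CPM and mCHERRY_2_Barcode_348373 at 2155 CPM, and all 3 were listed at 0 in PTPRCA marrow. GFP_Barcode_40977 was also listed at 0 in both baselines and both marrows of donor 1, yet stood at 487.6 CPM in NSG spleen of donor 1.

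The largest PTPRCA-restricted clones of donor 1 were mCHERRY_2_Barcode_364642 at 3067 CPM, mCHERRY_2_Barcode_321885 at 1790 CPM and mCHERRY_2_Barcode_101344 at 596.1 CPM, all listed at 0 in NSG marrow and at least 1028-fold higher in PTPRCA. Those of donor 2 were mCHERRY_2_Barcode_227392 at 1586 CPM, BFP_Barcode_29107 at 800.4 CPM and GFP_Barcode_44375 at 796.6 CPM. In NSG marrow BFP_Barcode_29107 was listed at 0 and the other two at 0.0728 and 0.123 CPM, below the limit of 3 reads. Each of the 9 restricted clones of PTPRCA marrow in donor 2, 14 in donor 1 and 70 of NSG marrow in donor 1 whose reads could be assigned was present in both libraries of its sample. Of the 70, 59 and 62 had at least 100 CPM in the first and the second library alone, and the lowest value in a library was 30.1 CPM.

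Spleen and baseline did not enter the choice of these clones, though spleen and marrow may come from the same recipients. Of the NSG-restricted clones 76 of 77 and 64 of 65 had at least 3 reads in NSG spleen, and of the PTPRCA-restricted clones 16 of 16 and 10 of 10 in PTPRCA spleen. In the spleen of the other strain 4 of 77 and 9 of 65 NSG-restricted clones did (5.19% and 13.8%), at no more than 8.69 CPM, against 96.6% and 96.8% of the other NSG clones. For PTPRCA-restricted clones it was 3 of 16 and 5 of 10, at no more than 6.59 CPM. In the spleen of their own strain, 37.7% and 26.2% of NSG-restricted clones reached 100 CPM, against 75.1% and 74.6% of the other NSG clones. For PTPRCA-restricted clones these shares were 62.5% and 50.0%, against 69.7% and 79.4% of the other PTPRCA clones. The baselines held 71 of 77 and 55 of 65 NSG-restricted clones and all 26 PTPRCA-restricted clones at 3 reads or more. NSG-restricted clones were rare there, with medians of 20.0 and 21.3 CPM against 59.3 and 123.7 CPM for the other NSG clones. PTPRCA-restricted clones had baseline medians of 263.2 CPM in donor 1 (11 of 16 at 100 CPM or more) and 28.6 CPM in donor 2 (2 of 10), against 84.1 and 145.2 CPM for the other PTPRCA clones, so that the donors lay on opposite sides.

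**Figure D4:**
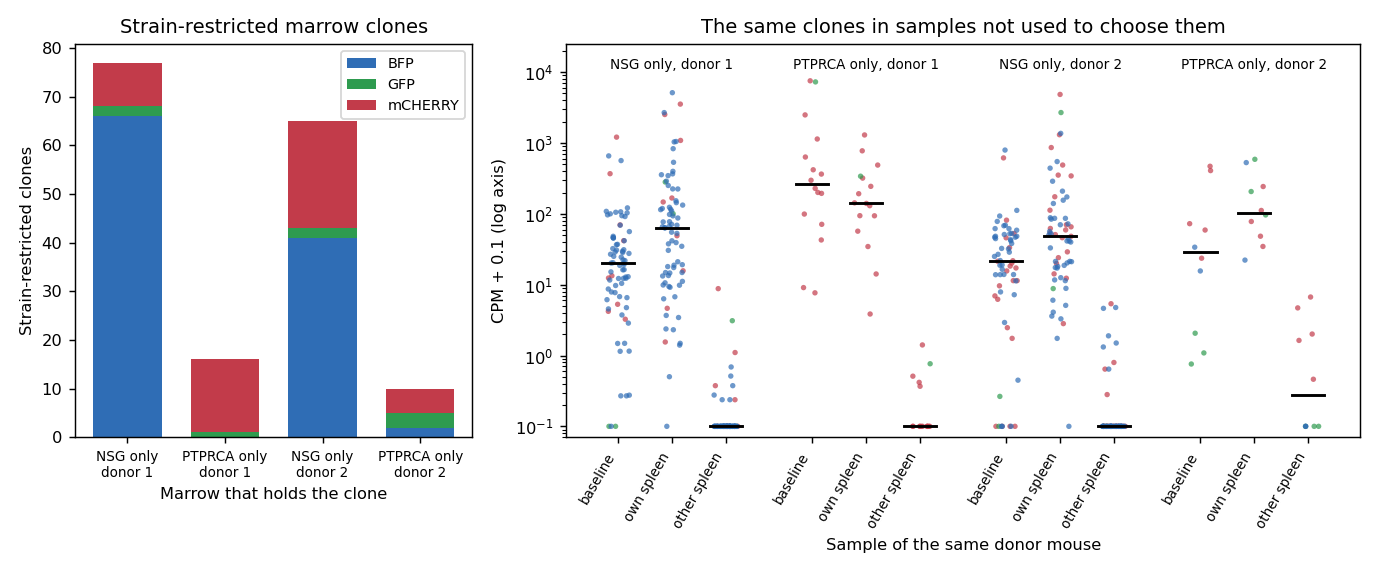
Left, number of strain-restricted marrow clones (vertical axis) for each strain and donor mouse, stacked by barcode library, 77 and 65 for NSG against 16 and 10 for PTPRCA. Right, CPM + 0.1 (vertical axis, log scale) of the same clones in their donor's baseline, in the spleen of their own strain and in the spleen of the other strain, 1 point for each clone coloured by library, with black bars at the medians. Nearly all points of the other strain's spleen lie at or near 0.

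The barcode libraries took unequal parts in these differences. Of the NSG-restricted clones 66 of 77 in donor 1 and 41 of 65 in donor 2 were BFP, as were 0 of 16 and 2 of 10 PTPRCA-restricted clones. Among all BFP clones of at least 100 CPM in NSG marrow, 22.1% (66 of 298) and 31.3% (41 of 131) were restricted to NSG, and among mCHERRY clones 3.41% (9 of 264) and 5.20% (22 of 423). Among the few GFP clones the shares were as high as for BFP, at 22.2% (2 of 9) and 28.6% (2 of 7). In PTPRCA marrow 0 of 112 and 2 of 91 BFP clones, 15 of 294 and 5 of 319 mCHERRY clones and 1 of 13 and 3 of 8 GFP clones were restricted. BFP clones were smaller than mCHERRY clones in NSG marrow, with medians of 256.4 and 209.7 CPM against 514.8 and 444.6 CPM. The part of this size difference in the counts was not tested.

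The number of BFP clones was higher in NSG marrow of both donors, at 298 against 112 in donor 1 and 131 against 91 in donor 2 (exact permutation p = 0.5, the smallest possible). The BFP share of reads was 19.9% in NSG and 7.26% in PTPRCA marrow of donor 1, and 5.30% and 5.59% in donor 2, so that the donors went in opposite directions (log2 1.45 and -0.075, exact permutation p = 1). In donor 1 NSG marrow, 426 clones of 100 to 1000 CPM were split by library. BFP held 50.8% and 55.9% of their reads in the first and second library. Larger and rarer clones are left out of this base, so these shares are not comparable with the 19.9% of all reads. In donor 2 the largest BFP clone held 0.246% of NSG and 1.32% of PTPRCA marrow, the latter being BFP_Barcode_97773. Over BFP clones the median log2 difference NSG minus PTPRCA was 2.96 (337 clones) in donor 1 and 1.27 (187 clones) in donor 2, where over all marrow clones of the donor it was 1.21 and 1.10 and over all 3443 clones tested 0 and 0. Of the BFP clones of donor 1, 210 were over 4-fold higher in NSG and 29 over 4-fold higher in PTPRCA. In donor 2 the counts were 85 and 47. These clones were chosen on the higher of the values compared, so the medians and counts follow in part from the clone numbers above. The 3443 include clones absent from the donor, so nothing is read from their median against the others. The same limits hold for the mCHERRY and GFP clones below.

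The mCHERRY clones differed between the donors. Their number was 264 in NSG against 294 in PTPRCA marrow of donor 1, and 423 against 319 in donor 2, and the median log2 difference was -0.42 (368 clones) and 1.09 (503 clones). Their share of reads was 43.7% against 52.2% in donor 1 and 56.8% against 57.8% in donor 2, a mean log2 ratio of -0.14 (exact permutation p = 0.5). Of the reads left without GFP_Barcode_52804, mCHERRY held 63.6% against 76.8% in donor 1 and 89.5% against 88.6% in donor 2. Over all listed mCHERRY barcodes, not the included clones alone, the effective number was 106.9 in NSG against 95.2 in PTPRCA marrow of donor 1. In donor 2 it was 147.3 against 62.9. For all listed BFP barcodes the effective number was 217.5 against 90.0 and 267.1 against 82.6, a larger gap in both donors.

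GFP clones were few and leaned to PTPRCA. Of 16 GFP clones in donor 1, 12 were higher in PTPRCA marrow, 8 of them over 4-fold, and of 11 in donor 2, 7 and 5 were. Their median log2 difference was -1.99 and -1.75. The GFP share of reads was 36.5% in NSG and 40.6% in PTPRCA marrow of donor 1 and 37.9% and 36.6% in donor 2 (mean log2 ratio -0.051, exact permutation p = 1), most of it GFP_Barcode_52804. Of the reads left without that clone, GFP held 7.42% in NSG and 12.5% in PTPRCA marrow of donor 1, and 2.09% and 2.79% in donor 2 (mean log2 ratio -0.58, exact permutation p = 0.5).

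**Figure D5:**
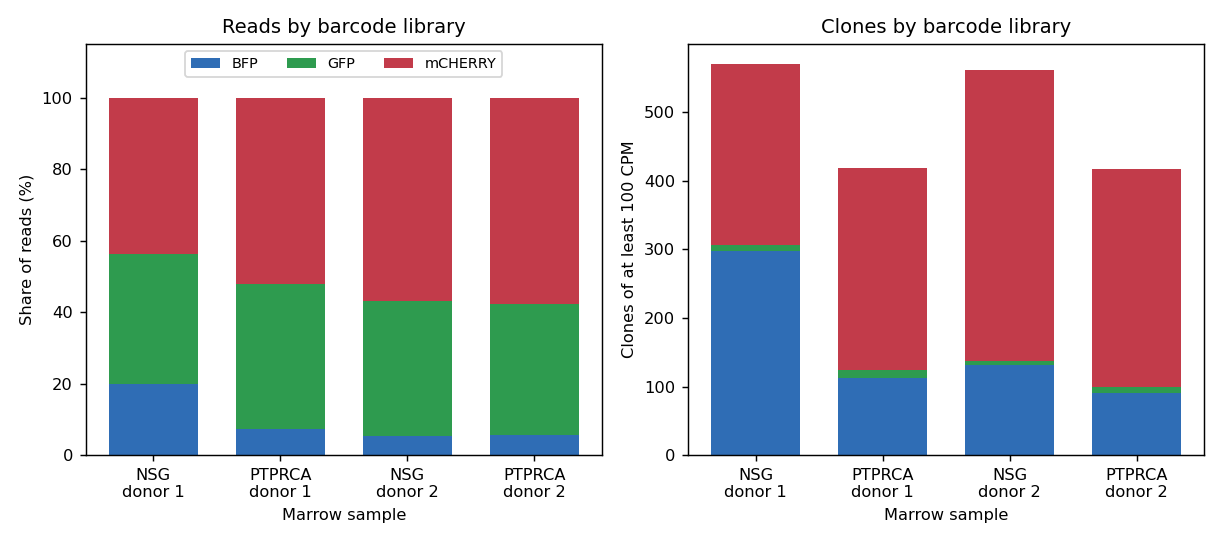
Left, share of marrow reads (vertical axis, %) and right, number of clones of at least 100 CPM (vertical axis) in each marrow sample, stacked by barcode library. BFP (blue) falls from 298 to 112 clones between NSG and PTPRCA in donor 1 and from 131 to 91 in donor 2, while its share of reads is 19.9% against 7.26% and 5.30% against 5.59%.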

How the data were processed

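Barcodes were amplified from lysed sorted cells in 2 rounds of PCR on technical replicates of each lysate, per the labels' protocols. Bowtie 1.2.2 and R 3.6 are listed in the submitters' processing notes. The values deposited by the authors are CPM, and each column sums to 1000000. How barcodes were listed and filtered, and how technical replicates were combined, is not given in the sources used here. Low marrow values were sums of 2 steps (4 in donor 2 NSG marrow), so a column equals the mean of that many libraries. These steps implied totals within 0.0097 reads of a whole number in each of the 23 libraries, and values up to 1000 CPM with 1 solution (96.2% to 98.9%) were split by library. No single step gives whole reads, so no count model was used.

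Same-numbered samples share a donor mouse, per the labels, and their deviations from the group means correlated at 0.778. Library shares have 95% Wilson intervals of at most 0.0428 percentage points on either side. These treat reads as independent and hold for counting error alone. They do not measure the spread between technical replicates or mice. Clones were tested with limma 3.58.1 in R 4.3.3 (lmFit, eBayes with a trend) on log2(CPM + 10) over all 10 samples, with 1 mean per group, for the 3443 clones of at least 100 CPM in any sample, at a Benjamini-Hochberg adjusted p below 0.05. It was tested on simulated data. Other values came from Python 3.11.15 with scipy 1.17.1, and exact permutation tests (two-sided) exchanged the strains within each donor.

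Named were the 5 largest clones of each marrow, up to 3 clones each way with the largest mean difference among clones of 1 sign in both donors, the 3 largest strain-restricted clones of each donor and strain, clones of 100 CPM in both donors and 2 extremes per direction and donor. The members and lists were chosen with earlier results of these data known. Alternatives were other limits (10 and 1000 CPM), pseudocounts of 1 and 100, no filter, donor as a block, the marrow samples alone, the largest clone removed, other indices, and leaving out a donor. Chosen after seeing the data were single marrow samples left out, the common 1 CPM limit, the block with no filter and the separate libraries of donor 1 NSG marrow.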

Additional observations from a re-analysis of the deposited data

How the results depend on the processing

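Clone number, effective number, evenness and mCHERRY share kept the direction of their mean over donors under every alternative run for them. Their ranges with 1 donor left out were 0.42 to 0.45, 0.55 to 0.61, 0.032 to 0.044 and -0.26 to -0.026 (log2 ratios, a difference for evenness). Without the largest clone, the mCHERRY share had opposite signs in the donors, with log2 ratios of -0.27 in donor 1 and 0.015 in donor 2. Inverse Simpson numbers brought the log2 ratio of effective numbers from 0.58 to 0.036 (donor 2 alone -0.0063). The BFP share went from a log2 ratio of 0.69 to between -0.075 and 1.45, and the GFP share from -0.051 to between -0.15 and 0.051, with 1 donor left out, and both turned sign without donor 1. The mean count of NSG-restricted clones of a donor was 71 (65 to 77 with 1 donor left out), 149 under a limit of 10 CPM in the other strain and 1.5 for clones of at least 1000 CPM. PTPRCA-restricted clones numbered 13 (10 to 16), 8 when listed at 0, 54 under 10 CPM and 1.5 at 1000 CPM, so that the excess in NSG was not seen among clones of at least 1000 CPM. The mean rho of 0.168 was 0.479 over clones of at least 100 CPM in both marrows and -0.026 over clones of at least 1000 CPM in either. Limma called 0 clones under each alternative, with the donor block (0, alone, with no filter or on the 4 marrow samples), and with each marrow sample left out (0 to 0). The block changed no call. A fit without a whole donor was not run, since it leaves 1 sample in every group. With 2 donors, the exact test cannot go below 0.5.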

Other observations

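Below the 100 CPM limit, NSG marrow again held more clones than PTPRCA marrow in the class of 10 to 100 CPM, with 781 against 501 barcodes in donor 1 and 678 against 553 in donor 2. The rarer classes did not follow that order in both donors. Barcodes of 1 to 10 CPM numbered 742 in NSG and 679 in PTPRCA marrow of donor 1, and 613 and 911 in donor 2. Barcodes below 1 CPM numbered 374 in NSG and 521 in PTPRCA marrow of donor 1, and 581 and 955 in donor 2. Depth differed between these samples and was highest in donor 2 NSG marrow. Of these rarest barcodes, 1.03% to 2.67% in a sample reached 100 CPM in the other donor and not in their own.

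Barcodes that were absent from the baselines but present in NSG samples of both donors included GFP_Barcode_40977, at 11609 CPM in marrow and 2691 CPM in spleen of donor 2 and 487.6 CPM in spleen of donor 1. BFP_Barcode_354313 stood at 346.0 CPM in NSG spleen of donor 1 and 72.0 CPM in that of donor 2, beside its marrow values of 118.9 and 60.3 CPM. Neither was found in a PTPRCA sample. Whether reads or cells crossed between samples, or separate cells received the same barcode, was not tested. These 2 barcodes were picked after their values were seen among the named clones.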
